A study of Mus musculus with 12 samples.

Results

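The genes described here are chaperones of the heat shock families and their partners, mainly those of the cytosol, nucleus and mitochondria. They were chosen by gene symbol: heat shock proteins (HSP), DNAJ proteins, subunits of the chaperonin CCT, BAG genes, the heat shock factors Hsf1, Hsf2 and Hsf4, and Stip1. Of the chaperones of the endoplasmic reticulum, 6 were left out by name: Hspa5, Hspa13, Dnajb9, Dnajb11, Dnajc3 and Dnajc10. Some proteins of that compartment, such as Dnajb12 and Dnajb14, remained. The rule matched 88 of the 57180 rows of the deposited table. By role these were 3 heat shock factors, 7 small HSP genes, 9 HSP70 genes, 3 HSP110 genes, 2 HSP90 genes, Stip1, 2 mitochondrial chaperonin genes, 10 CCT genes, 41 DNAJ genes, 6 BAG genes and 4 pseudogenes.

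Expression was measured by mRNA sequencing in 2 mouse tumour cell lines, the bladder cancer line MB49 and the KPC line of pancreatic ductal adenocarcinoma, both labelled WT for genotype. Each line had 3 control libraries and 3 libraries from cells given 8 Gy of radiation and then cultured for 48 h. The labels give no culture time for the controls, and do not mark any library as senescent, although senescent cells are named in the study's design. Whether the libraries of a group were grown as independent cultures is not labelled; each p-value therefore reflects the spread among these libraries alone, which may be technical.

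Heat shock chaperones keep other proteins folded. HSP70 binds exposed hydrophobic stretches in cycles of ATP hydrolysis that DNAJ proteins start and that BAG and HSP110 proteins end by exchanging the nucleotide, and STIP1 hands clients on from HSP70 to HSP90. Actin and tubulin fold inside the CCT ring, and mitochondrial proteins in the HSPD1 barrel with its HSPE1 lid. Under proteotoxic stress the heat shock factor HSF1 binds arrays of a short inverted repeat, the heat shock element, in front of many of these genes.

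Start-site windows from RefSeq (mouse GRCm38.p6, which is not the build of the deposited table) were matched by symbol for 67 of the 88 genes. Each window runs from 250 bases before to 50 bases after a start. They were searched on both strands for the paired motif (GAANNTTC or TTCNNGAA, each its own reverse complement) and for a triple, in which such a pair is followed after NN by 1 more unit so that 2 pairs overlap. A pair was found in 29.9% of the 67 genes and in 17.0% of all 27025 genes with a window. The triple was found in 4 of the 67, Hspd1, Hspe1, Dnajb6 and Hsph1 (5.97%), against 0.662% of all genes. The 4 upstream stretches printed here belong to genes whose responses differ in the results: the stretch between the starts of Hspe1 and Hspd1, which are transcribed away from each other, the near-identical Hspa1b and Hspa1a, and Dnajb6. They are written 5′ to 3′, with every match to the paired motif in capitals. The Hspe1 and Hspd1 stretch is the whole 215 bases between the starts (chr1:55087933-55088147, plus strand, the strand of Hspe1). The others are the 250 bases before the start: Hspa1b at chr17:34959239-34959488 (minus strand), Hspa1a at chr17:34972157-34972406 (minus strand) and Dnajb6 at chr5:29735648-29735897 (plus strand).
Hspe1-Hspd1: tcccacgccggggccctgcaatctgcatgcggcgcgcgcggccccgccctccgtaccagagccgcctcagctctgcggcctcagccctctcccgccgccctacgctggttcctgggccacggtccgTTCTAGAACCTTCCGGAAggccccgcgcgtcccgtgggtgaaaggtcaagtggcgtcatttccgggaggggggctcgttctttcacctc
Hspa1b: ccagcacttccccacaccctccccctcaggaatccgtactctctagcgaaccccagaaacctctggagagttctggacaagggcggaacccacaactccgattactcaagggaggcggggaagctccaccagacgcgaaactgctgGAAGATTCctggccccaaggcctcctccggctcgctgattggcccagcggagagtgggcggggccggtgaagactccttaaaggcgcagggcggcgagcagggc
Hspa1a: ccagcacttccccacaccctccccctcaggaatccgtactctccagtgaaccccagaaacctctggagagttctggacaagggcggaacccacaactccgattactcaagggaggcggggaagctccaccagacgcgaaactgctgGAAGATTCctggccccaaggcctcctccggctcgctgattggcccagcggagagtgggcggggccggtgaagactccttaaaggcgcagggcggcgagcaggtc
Dnajb6: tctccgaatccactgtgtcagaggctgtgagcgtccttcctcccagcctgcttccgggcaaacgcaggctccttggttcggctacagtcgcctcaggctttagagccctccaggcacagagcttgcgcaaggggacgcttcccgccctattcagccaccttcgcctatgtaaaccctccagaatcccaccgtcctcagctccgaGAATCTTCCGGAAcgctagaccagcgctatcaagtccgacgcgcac
The Hspe1 and Hspd1 stretch holds 3 overlapping pairs in 1 run, and that of Dnajb6 holds 2. The 2 Hspa1 stretches each hold 1 pair in the same sequence context. No window was matched for Bag4, Cct3-ps1, Cct4, Dnaja1-ps, Dnajb6-ps, Dnajc11, Dnajc12, Dnajc18, Dnajc19-ps, Dnajc2, Dnajc22, Dnajc30, Dnajc5, Dnajc5b, Hsf1, Hsf4, Hsp90aa1, Hsp90ab1, Hspa8, Hspa9 and Hspb2.

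The libraries held 19006015 to 26337950 estimated counts, and the 88 genes took 0.885 to 1.774% of them. Levels are given as CPM, the count as a share of the library's scaled total, with TMM factors as the scaling between libraries. The marker levels in this paragraph are the exception: they are CPM of the plain library total, without TMM factors. In 1 library, KPC control replicate 1, the rRNA gene Rn18s-rs5 took 5.11% of the counts, against 0.14 to 0.55% in the other 11. Of 9 urothelial markers, 2 reached 1 CPM in the MB49 controls and the uroplakin genes Upk1b, Upk2, Upk3a and Upk3b had 0 counts, while 5 of 8 pancreatic duct markers reached 1 CPM there, Pdx1 at 19.7 CPM among them. In the KPC controls 6 of the 8 duct markers and 3 of the 9 urothelial markers did. Of 13 immune markers, 1 reached 1 CPM in each group. Summed marker levels also moved with 8 Gy. The 8 fibroblast and endothelial markers summed to 48.9 to 59.5 CPM in the MB49 controls and 138.7 to 206.3 CPM after 8 Gy, and to 107.7 to 153.0 and 47.8 to 53.4 CPM in KPC. Of these 8, 2 reached 1 CPM in the MB49 controls, 3 after 8 Gy, and 2 in each KPC group. Dcn (means of 41.2 and 127.9 CPM) and Pdgfra (12.7 and 36.8 CPM) made up most of the MB49 sums. Pdgfrb (115.6 and 43.5 CPM) made up most of the KPC sums. The urothelial sum went from 26.1 to 33.8 CPM down to 8.25 to 9.16 CPM in MB49, and the sum of 6 epithelial markers from 909.6 to 991.7 CPM up to 2942 to 3156 CPM in KPC. The part of these markers in the results was not tested.

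After 8 Gy, 24 of the 71 members with enough counts to be tested were higher in MB49 and 27 were lower, and in KPC 23 were higher and 20 lower (quasi-likelihood F test in edgeR, p-values adjusted by Benjamini-Hochberg across the 14362 genes that passed the count filter, threshold 0.05). These shares were near the background, since 66.9% of all genes tested were called in MB49 (35.3% higher and 31.6% lower) and 63.3% in KPC (31.3% higher and 32% lower). The median log2 fold change of the members was -0.02 in MB49, against 0.04 over all genes tested, and 0.05 in KPC, against -0.01. By these medians and counts the family as a whole had no common direction, and members were called both ways in each line. Hspa8, Hsp90ab1, Hspa1b and Hspa2 each rose at least 2.91-fold in both lines, and Bag5, Bag2 and Dnajc11 each fell at least 2.28-fold in both. With library totals in place of TMM factors the median of all genes shifted by -0.29 in MB49 and -0.38 in KPC, and the share of rises among all called genes went from 52.7 to 39.5% and from 49.4 to 31.8%, so each change is relative to the TMM scale.

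Both lines shared 16 rises and 14 falls among the 71. In 2 genes, Hsf1 and Hspa1a, the call was a fall in MB49 and a rise in KPC, and in 2 others, Dnajb4 and Dnajb5, it was the reverse. A further 11 were called in neither line. The matching counts over all genes tested were not made. Since 66.9% of those genes were called in MB49 and 63.3% in KPC, the shared calls are not read as particular to the members. Across the 71 members the log2 fold changes in the lines had a Pearson correlation of 0.468, against 0.565 over all genes tested, and the same sign in 73.2% of members against 70% of genes. These are descriptions across genes of the same 12 libraries, not tests. The 3 libraries of 1 group lay wholly above or below those of the other for 47 members in MB49 (background 67.4% of genes) and 49 in KPC (background 69.7%). The test of the difference between the responses called 16 members higher in KPC and 12 lower, where 42.9% of all genes tested were called (20.9% higher and 22% lower).

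**Figure D1:**
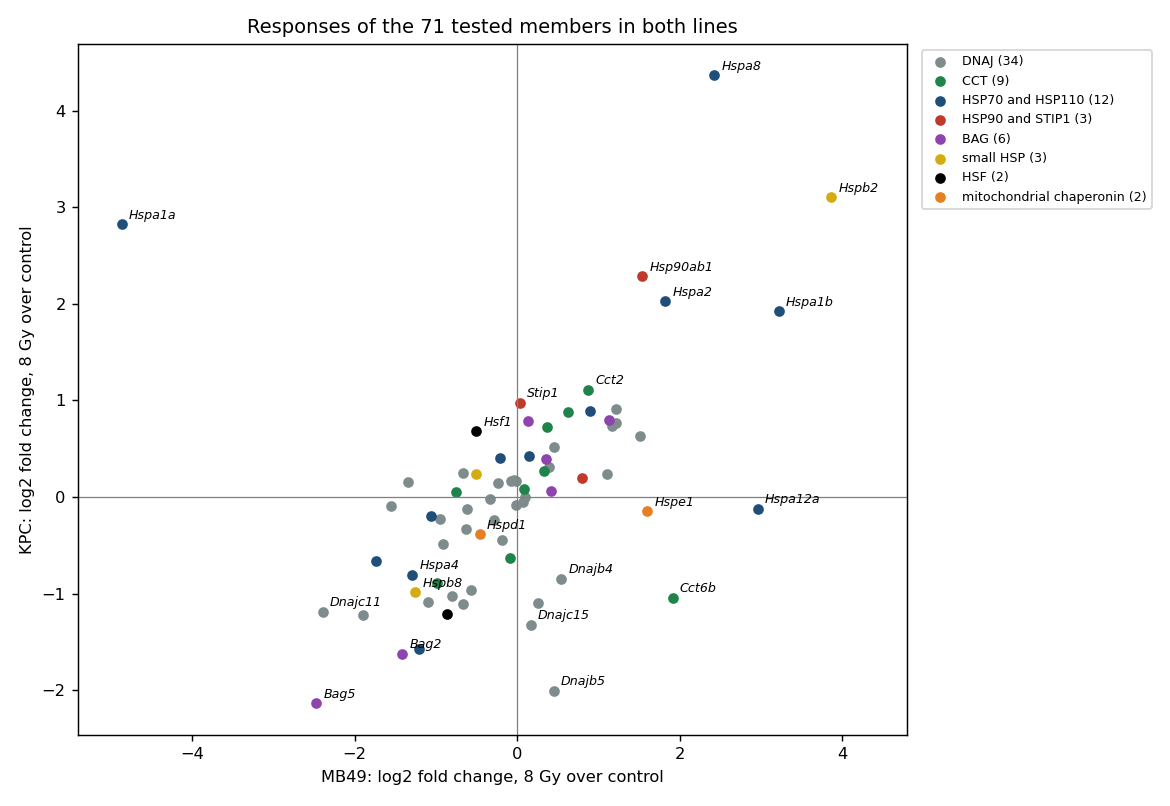
The log2 fold change after 8 Gy in MB49 (x axis) and in KPC (y axis) for the 71 members tested, 1 point per gene, coloured by family with the number of genes in brackets. Hspa8, Hsp90ab1, Hspa2, Hspa1b and Hspb2 lie high in both lines, Bag5, Bag2 and Dnajc11 low in both, and Hspa1a, whose MB49 fold rests on 12 counts against 0, lies alone at the upper left.

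Hsf1, the main activator of heat shock genes, moved in opposite directions in the lines. It stood at 84.4, 70.8 and 81.8 CPM in the MB49 controls and at 62.7, 58.7 and 45.9 CPM after 8 Gy. In KPC it stood at 47.8, 46.6 and 47.4 CPM in the controls and at 76.5, 70.6 and 80.7 CPM after 8 Gy. The groups did not overlap in either line. The log2 fold change was -0.50 ± 0.12 (SE) in MB49 (adjusted p = 0.00184) and 0.68 ± 0.12 in KPC (adjusted p = 0.00013), and the difference of 1.19 ± 0.18 passed the test (adjusted p = 5.05e-05). Hsf2, a related factor that can join HSF1 on the same elements, fell in both lines: the log2 fold change was -0.87 ± 0.23 in MB49 (adjusted p = 0.00319) and -1.21 ± 0.23 in KPC (adjusted p = 0.000213). Its level was low, with a control mean of 10.5 ± 1.56 CPM in MB49 and of 12.2 ± 0.992 CPM in KPC (SD, n = 3). Hsf4, a factor best known from the lens, had 11 counts over the 12 libraries and was not tested.

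Among members reaching 5 CPM the largest fold change was that of Hspa8 in KPC. Hspa8 is the constitutive cytosolic HSP70, which is abundant in unstressed cells. It stood at 520, 556 and 590 CPM in the MB49 controls and at 3157, 2937 and 2854 CPM after 8 Gy. In the KPC controls it stood at 206, 205 and 221 CPM, and after 8 Gy at 4377, 4462 and 4188 CPM. All irradiated libraries lay far above all controls, and the line that started lower ended higher. The rise was 5.37-fold in MB49 (log2 2.43 ± 0.12, adjusted p = 1.45e-11) and 20.6-fold in KPC (log2 4.37 ± 0.13, adjusted p = 2.51e-14), and the difference of the responses was 1.94 ± 0.16 on the log2 scale (adjusted p = 9.27e-08). In the comparison of the controls, where 24 of the 71 members were called higher in KPC (33% of all genes) and 19 lower (34.4%, and 67.3% in either direction), Hspa8 was lower in KPC by the test (log2 fold change KPC over MB49 -1.40 ± 0.11, adjusted p = 7.87e-09). These are bulk libraries, in which fewer cells making an RNA and less RNA per cell cannot be told apart.

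Hspa1b, one of the stress-inducible HSP70 genes, started from a very low level in MB49. It stood at 2.51, 1.94 and 3.82 CPM in the MB49 controls and at 26.3, 27.1 and 22.7 CPM after 8 Gy, a 9.3-fold rise (log2 3.22 ± 0.22, adjusted p = 1.61e-09). In KPC the controls held 45.5, 69.4 and 72 CPM and the irradiated libraries 269, 217 and 225 CPM, a 3.8-fold rise (log2 1.93 ± 0.19, adjusted p = 1.26e-07). No irradiated library overlapped with a control of its line, and every KPC control lay above every irradiated MB49 library. The response was smaller in KPC by 1.29 on the log2 scale (difference -1.29 ± 0.28, adjusted p = 0.00165), and among the controls KPC was higher by 4.51 ± 0.23 (adjusted p = 1.52e-11). The twin gene Hspa1a had 12 counts in the MB49 controls and 0 after 8 Gy, at least 3.06-fold lower when the 0 is set to the group's floor of 3 counts. Its call in MB49 (adjusted p = 0.0152) was lost without MB49 control replicate 2 (adjusted p = 0.0642), and the groups overlapped there, since replicate 1 also had 0 counts. In KPC it went from 38 to 215 counts, 7.01-fold (exact 95% interval of counting error only, 4.95 to 10.2). The 2 transcripts are 98.8% identical over 2249 aligned bases, so reads of one can be counted for the other and the split between them is uncertain. Their summed level went from 2.91 ± 0.945 to 25.4 ± 2.36 CPM in MB49 and from 62.8 ± 14.8 to 240.5 ± 28.6 CPM in KPC (SD, n = 3).

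Hspa9, the HSP70 of mitochondria, stood at 1034, 1215 and 1112 CPM in the MB49 controls and at 520, 483 and 610 CPM after 8 Gy. It fell there without overlap by 1.06 on the log2 scale (-1.06 ± 0.13, adjusted p = 1.01e-06). In KPC the value was -0.20 ± 0.12 and did not pass (adjusted p = 0.17), though it did with library totals (-0.59, adjusted p = 0.00137). The difference of the responses passed (0.86 ± 0.18, adjusted p = 0.000878). Hspa2, an HSP70 best known from the testis, was scarce but rose 3.54-fold in MB49, from a mean of 1.26 ± 0.26 to 4.46 ± 0.572 CPM (adjusted p = 2.84e-06), and 4.08-fold in KPC, from 2.34 ± 0.634 to 9.6 ± 0.968 CPM (adjusted p = 3.44e-07). Of the 9 HSP70 genes, 4 rose and 4 fell in MB49, and 5 rose and 1 fell in KPC. Of the family 88.9% were called in MB49 and 66.7% in KPC, against 66.9% and 63.3% of all genes tested. Hspa14, a ribosome-associated member, was called higher in KPC (0.42 ± 0.13, adjusted p = 0.00849), where library totals gave 0.04 (adjusted p = 0.831). The other 3 members were scarce and are named with their values seen. Hspa12a rose from 0.143 ± 0.0318 to 1.14 ± 0.0889 CPM in MB49 (SD, n = 3; adjusted p = 9.21e-06), and Hspa12b was called lower there, from 36 to 8 counts (adjusted p = 0.0174), a call lost without irradiated replicate 1 or 2 (adjusted p = 0.0546 to 0.0707) and with DESeq2 (adjusted p = 0.0832). Hspa1l, a testis form, was called lower in MB49 (-1.20 ± 0.45, adjusted p = 0.027) and in KPC (-1.57 ± 0.50, adjusted p = 0.011) from control means of 1.61 and 1.21 CPM. The MB49 call of Hspa1l was lost without control replicate 2 or irradiated replicate 1 or 2 (-1.05 to -0.95), and the KPC call without irradiated replicate 2 (-1.05, adjusted p = 0.0581).

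Counts divided by gene length allow the genes to be compared within a library. On that scale Hspa8 made up 37.3% ± 1.59 of the summed HSP70 level in the MB49 controls and 85.6% ± 1.83 after 8 Gy, and 29.4% ± 1.94 and 87.4% ± 0.223 in KPC (SD, n = 3). The share of Hspa9 went from 59.1% ± 1.9 to 12.1% ± 1.62 in MB49 and from 56.5% ± 1.55 to 7.09% ± 0.24 in KPC. So the leading HSP70 gene in each control library was Hspa9, and in each irradiated library it was Hspa8. The share of Hspa1b went from 0.158% to 0.623% in MB49 and went from 7.37% to 4.07% in KPC, where its CPM had nevertheless risen.

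**Figure D2:**
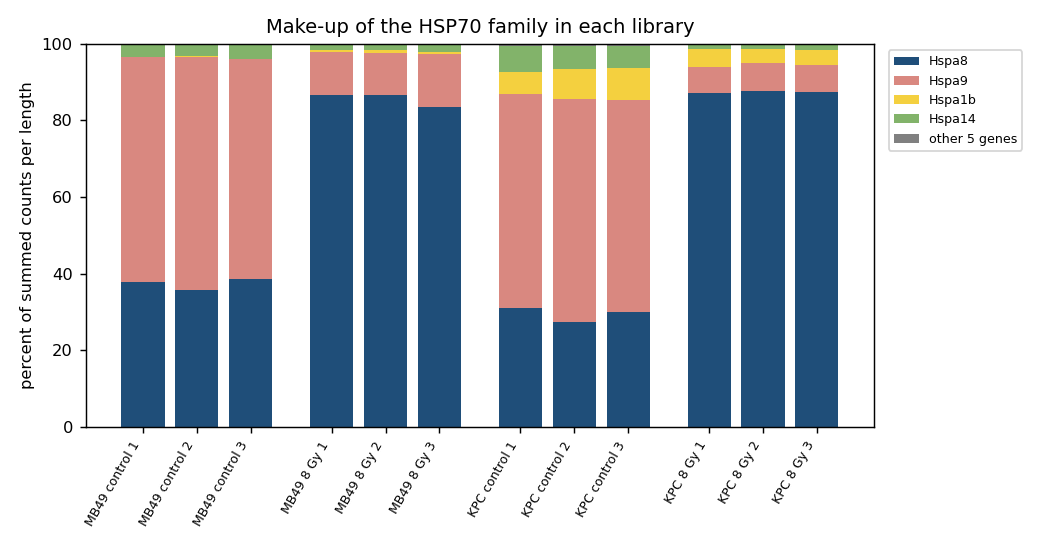
Share of each gene in the summed HSP70 level (counts per gene length, y axis in percent) for each of the 12 libraries on the x axis. Hspa9 fills 55.47 to 61.06% of every control bar, and Hspa8 fills 83.44 to 87.61% of every irradiated bar.

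Hsp90ab1, the constitutive cytosolic HSP90, had the highest level per length of all members in each of the 4 groups. It stood at 1814, 1802 and 1936 CPM in the MB49 controls and at 5517, 5588 and 5039 CPM after 8 Gy. In KPC the controls stood at 1637, 1654 and 1657 CPM and the irradiated libraries at 8209, 7936 and 7977 CPM. The lines were close before treatment (log2 difference of the controls -0.17 ± 0.11, adjusted p = 0.196) and both rose without overlap, 2.91-fold in MB49 (log2 1.54 ± 0.11, adjusted p = 2.73e-09) and 4.88-fold in KPC (log2 2.29 ± 0.12, adjusted p = 2.75e-11). The rise was larger in KPC by 0.75 ± 0.16 (adjusted p = 0.00111). Hsp90aa1, its stress-inducible paralog, stood at 185, 227 and 217 CPM in the MB49 controls and at 334, 287 and 467 CPM after 8 Gy, and rose by 0.79 ± 0.19 (adjusted p = 0.00131). In KPC it stood at 162, 186 and 154 CPM and at 175, 248 and 150 CPM, so the groups overlapped, and the change of 0.19 ± 0.19 did not pass (adjusted p = 0.385). The difference of the Hsp90aa1 responses was -0.60 and did not pass (adjusted p = 0.0779). It passed in some other settings, such as the length trend as offset (-0.67, adjusted p = 0.0433). Per length, Hsp90ab1 held 92% ± 0.778 of the HSP90 sum in the MB49 controls and 95% ± 1.5 after 8 Gy, and 92.8% ± 0.658 and 98.2% ± 0.487 in KPC.

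Stip1, the adaptor between HSP70 and HSP90, stood at 348, 348 and 310 CPM in the MB49 controls and at 367, 357 and 309 CPM after 8 Gy. The MB49 groups overlapped, and the value of 0.04 ± 0.11 did not pass (adjusted p = 0.791), whereas with library totals it was -0.26 (adjusted p = 0.0246). In KPC Stip1 stood at 358, 321 and 343 CPM and at 667, 670 and 671 CPM after 8 Gy, a 1.97-fold rise without overlap (log2 0.98 ± 0.11, adjusted p = 9.09e-07). The difference of the responses was 0.94 ± 0.16 (adjusted p = 0.000178).

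The mitochondrial chaperonin pair, whose genes share the stretch printed above, did not move together. Hspe1, the lid, stood at 69.3, 67 and 113 CPM in the MB49 controls and at 197, 247 and 308 CPM after 8 Gy, a 3.03-fold rise (log2 1.60 ± 0.20, adjusted p = 2.19e-06). Hspd1, the barrel, stood at 332, 409 and 408 CPM and at 234, 245 and 355 CPM, and fell by 0.46 on the log2 scale (-0.46 ± 0.15, adjusted p = 0.0134). The Hspe1 groups did not overlap and the Hspd1 groups did. In KPC Hspe1 stood at 108, 111 and 82.8 CPM and at 89.5, 94.8 and 87.6 CPM (-0.15 ± 0.19, adjusted p = 0.522), and library totals gave a called fall (-0.53, adjusted p = 0.0295). Hspd1 stood at 207, 210 and 177 CPM there and at 140, 166 and 149 CPM after 8 Gy (-0.38 ± 0.15, adjusted p = 0.0378). The difference of the responses of Hspe1 passed (-1.75 ± 0.27, adjusted p = 0.000105). Short genes as a whole moved up in MB49: the eighth of all genes that were shortest (median 831 bases) had a median log2 fold change of 0.64 and the longest (6961 bases) -0.28. With the trend over gene length taken out, Hspe1 (774 bases) rose by 0.92 in MB49 (adjusted p = 3.18e-06) and the difference was -0.93 (adjusted p = 0.00029). The fall of Hspd1 in MB49 lost its call without irradiated replicate 1 or 2 (-0.38 to -0.35, adjusted p = 0.068 to 0.0734). That in KPC lost it without control replicate 1 or 2 or irradiated replicate 1 or 3 (-0.37 to -0.33, adjusted p = 0.093 to 0.135), with RLE factors (-0.33, adjusted p = 0.0663), with DESeq2 (-0.33, adjusted p = 0.0553) and with the length trend taken out (-0.30, adjusted p = 0.0779).

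**Figure D3:**
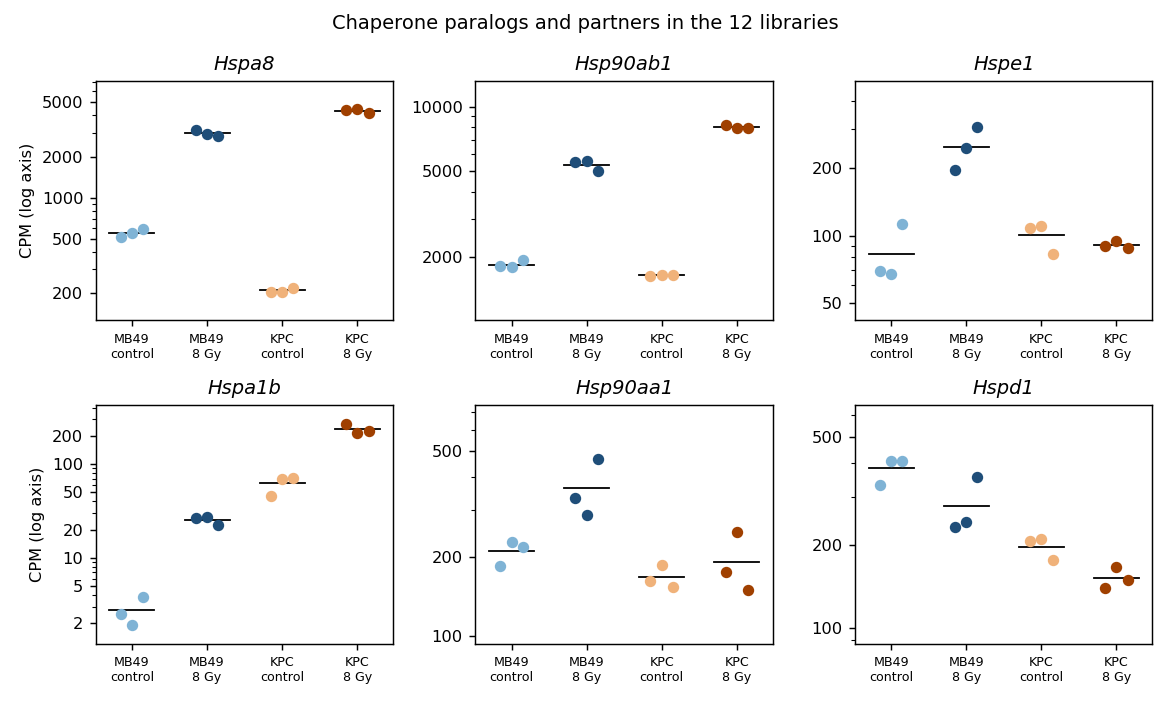
Levels in CPM (log axes, each panel with its own range) of Hspa8 and Hspa1b, Hsp90ab1 and Hsp90aa1, and Hspe1 and Hspd1 in the 12 libraries, with 1 point per library and a line at the group mean. The irradiated points of Hspa8, Hspa1b and Hsp90ab1 lie above the controls in both lines, while Hspe1 rises in MB49 alone by the test (log2 1.60 against -0.15 in KPC).

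The 8 subunits of the CCT ring, which are present in equal numbers in the assembled protein, changed unequally. Cct2 rose in both lines, from 315, 327 and 324 to 599, 610 and 565 CPM in MB49 (log2 0.88 ± 0.11, adjusted p = 2.72e-06) and from 370, 320 and 302 to 687, 743 and 710 CPM in KPC (log2 1.11 ± 0.11, adjusted p = 1.87e-07). Cct5 rose too, by 0.63 ± 0.11 in MB49 (adjusted p = 9.92e-05) and 0.88 ± 0.11 in KPC (adjusted p = 2.9e-06). Cct6a went the other way in both, from 455, 539 and 573 to 252, 242 and 295 CPM in MB49 (-0.99 ± 0.13, adjusted p = 2.33e-06) and from 303, 366 and 322 to 179, 182 and 174 CPM in KPC (-0.89 ± 0.13, adjusted p = 8.73e-06). None of these groups overlapped. Cct3 fell in MB49 (-0.76 ± 0.11, adjusted p = 7.42e-06), and its KPC value of 0.05 ± 0.11 (adjusted p = 0.688) turned to -0.33 with library totals (adjusted p = 0.00522). The difference for Cct3 was 0.81 ± 0.15 (adjusted p = 0.000382). Cct8 fell in KPC (-0.63 ± 0.14, adjusted p = 0.00097) and had a value of -0.09 ± 0.14 in MB49 (adjusted p = 0.592), which library totals moved to -0.38 (adjusted p = 0.0438).

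Tcp1 was called higher in both lines, by 0.37 ± 0.13 in MB49 (adjusted p = 0.0166) and 0.73 ± 0.13 in KPC (adjusted p = 9.43e-05). The MB49 call was lost without MB49 control replicate 1, MB49 irradiated replicate 3 or KPC control replicate 1 (0.26 to 0.33, adjusted p = 0.0595 to 0.0691) and with library totals (0.08, adjusted p = 0.623). It was also lost without the low-count filter (0.25, adjusted p = 0.149) and when only the groups compared were fitted (0.29, adjusted p = 0.0962). Cct7 was called higher by 0.33 ± 0.11 and 0.27 ± 0.11, close to the threshold (adjusted p = 0.0179 and 0.0472). With library totals the Cct7 values were 0.03 in MB49 (adjusted p = 0.79) and -0.11 in KPC (adjusted p = 0.3). Its MB49 call was lost without MB49 control replicate 2, MB49 irradiated replicate 2 or KPC control replicate 1 (0.23 to 0.28), and its KPC call without any 1 of 10 of the 12 libraries, all but MB49 control replicate 3 and MB49 irradiated replicate 3 (0.23 to 0.32, adjusted p = 0.0529 to 0.166). Without the low-count filter neither Cct7 call held (0.20 and 0.27, adjusted p = 0.275 and 0.118), and the MB49 call was lost when only the groups compared were fitted (0.24, adjusted p = 0.128). Cct4 passed in neither line (0.09 ± 0.13 and 0.08 ± 0.13). Per length, the ratio of the highest to the lowest of the 8 subunits in a library was 2.67 to 2.78 in the MB49 controls and 3.42 to 4.99 after 8 Gy. It was 4.17 to 5.76 in the KPC controls and 10.3 to 10.5 after 8 Gy, with Cct5 highest in each KPC library and Cct8 lowest in each irradiated library of either line. Cct6b, a testis form of the Cct6a subunit, stayed below 1 CPM in every library. Its call as higher in MB49 (1.91, adjusted p = 0.0212) came with overlapping groups and was lost without MB49 control replicate 2 or 3 or irradiated replicate 3 (1.37 to 1.63, adjusted p = 0.0645 to 0.147) and with DESeq2 (adjusted p = 0.0608).

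**Figure D4:**
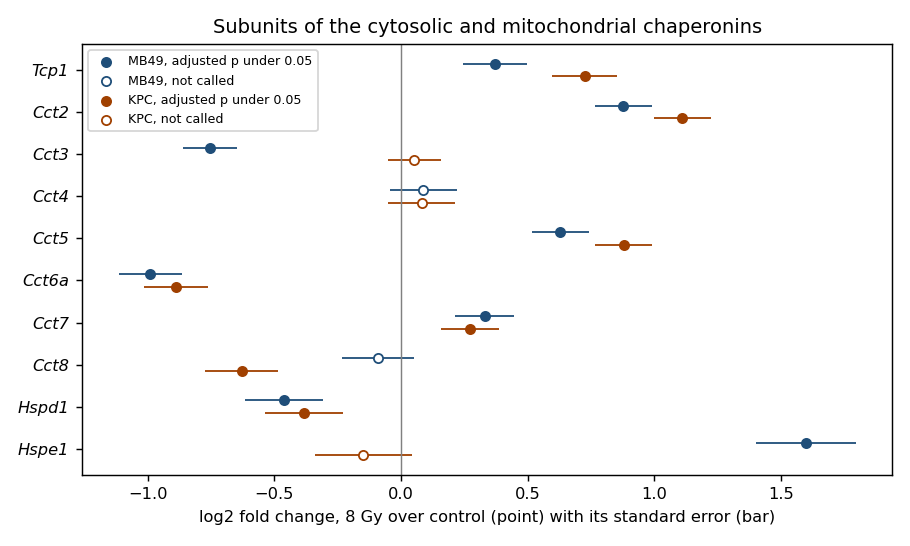
Log2 fold change after 8 Gy (x axis, bars are standard errors) of the 8 CCT subunits and of Hspd1 and Hspe1, in MB49 (blue) and KPC (brown), filled where the adjusted p is under 0.05. Cct2 and Cct5 lie to the right of 0 and Cct6a to the left in both lines, and Hspe1 lies far to the right in MB49 only (1.60).

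HSP110 proteins exchange the nucleotide of HSP70 and are built like it. Hspa4 fell in both lines, from 269, 322 and 339 to 113, 106 and 162 CPM in MB49 (-1.29 ± 0.15, adjusted p = 1.04e-06) and from 242, 266 and 240 to 140, 158 and 131 CPM in KPC (-0.80 ± 0.15, adjusted p = 0.000178). Hspa4l rose in both by nearly the same amount, 0.90 ± 0.17 in MB49 (adjusted p = 0.000134) and 0.89 ± 0.17 in KPC (adjusted p = 0.000194). The groups of both genes were separate in each line. Hsph1, the heat-inducible member, had a value of -0.21 ± 0.13 in MB49 (adjusted p = 0.154; -0.50 and adjusted p = 0.00675 with library totals) and was called higher in KPC (0.41 ± 0.13, adjusted p = 0.0109), where library totals gave 0.02 (adjusted p = 0.928).

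The BAG genes hold further exchange factors. Bag5, which carries several BAG domains, stood at 80.6, 83 and 96.9 CPM in the MB49 controls and at 14.7, 16.1 and 16.1 CPM after 8 Gy. In KPC it stood at 44.7, 48.1 and 47.1 CPM and at 11.1, 10.3 and 10.4 CPM. The irradiated libraries of each line lay in a narrow range far below its controls, 14.7 to 16.1 CPM in MB49 and 10.3 to 11.1 CPM in KPC. The fall was 5.55-fold in MB49 (-2.47 ± 0.12, adjusted p = 1.04e-11) and 4.4-fold in KPC (-2.14 ± 0.12, adjusted p = 8.32e-11). Bag2, an inhibitor of the ubiquitin ligase CHIP, went from 33.4, 28.4 and 33.4 to 11.8, 13 and 10.9 CPM in MB49 (-1.41 ± 0.12, adjusted p = 2.64e-08) and from 45.2, 44 and 51.7 to 15.8, 15 and 14.9 CPM in KPC (-1.62 ± 0.12, adjusted p = 4.63e-09). Bag1, the founding member, rose in both, from 52.5, 52.8 and 68 to 128, 128 and 121 CPM in MB49 (1.12 ± 0.12, adjusted p = 3.02e-07) and from 98.9, 84.3 and 86.7 to 155, 161 and 155 CPM in KPC (0.80 ± 0.12, adjusted p = 1.52e-05). None of these 3 genes overlapped between control and 8 Gy.

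Bag3, the stress-inducible partner of small HSPs in selective autophagy, rose in KPC, from 77.7, 76.1 and 83.5 to 135, 126 and 148 CPM (0.78 ± 0.15, adjusted p = 0.000154). In MB49 it stood at 71.5, 58.9 and 61 and at 81.6, 76.9 and 52.4 CPM, with overlap (0.14 ± 0.15, adjusted p = 0.415). Without MB49 irradiated replicate 3 the MB49 value was called, at 0.31. Bag6, which guards newly made tail-anchored proteins, was called higher in MB49 (0.42 ± 0.15, adjusted p = 0.0174) although its groups overlapped, and lost the call without MB49 control replicate 2, irradiated replicate 1 or irradiated replicate 2 (0.33 to 0.35, adjusted p = 0.0741 to 0.0873) and with library totals (0.12, adjusted p = 0.43). The call was also lost without the low-count filter (0.29, adjusted p = 0.0802) and when only the groups compared were fitted (0.33, adjusted p = 0.0821). The KPC value of Bag6 was 0.07 ± 0.15, and -0.33 with library totals (adjusted p = 0.036).

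DNAJ proteins bring clients to HSP70 and start its ATP hydrolysis. Of the 41 DNAJ genes, 34 were tested. In MB49 8 were higher and 13 lower, and in KPC 5 were higher and 11 lower, with median log2 fold changes of -0.13 and -0.09. These are 61.8% and 47.1% of the 34 called, against the background of 66.9% and 63.3%. Dnaja1 and Dnaja2, the main cytosolic class A proteins, passed in neither line (values between -0.09 and 0.18). Dnaja3, the mitochondrial one, fell in both, from 169, 166 and 163 to 94.1, 91.6 and 79.6 CPM in MB49 (-0.91 ± 0.10, adjusted p = 6.82e-07) and from 138, 128 and 134 to 96.9, 95.4 and 93.9 CPM in KPC (-0.48 ± 0.10, adjusted p = 0.000577). Dnaja4 was called higher in both lines (0.39 ± 0.11 and 0.31 ± 0.11), but with library totals its values were 0.09 in MB49 (adjusted p = 0.458) and -0.08 in KPC (adjusted p = 0.534). The KPC call of Dnaja4 was also lost without KPC control replicate 1, irradiated replicate 1 or irradiated replicate 3 (0.27 to 0.31, adjusted p = 0.052 to 0.0807). Without the low-count filter neither Dnaja4 call held (0.27 and 0.31, adjusted p = 0.196 and 0.123), and the MB49 call was lost when only the groups compared were fitted (0.31, adjusted p = 0.0576).

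Class B holds the partners of HSP70 in disaggregation. Dnajb1, the heat-inducible one, went against Hspa1b in MB49: it stood at 71.4, 61.9 and 65.2 CPM in the controls and at 55.5, 56 and 45.4 CPM after 8 Gy (-0.34 ± 0.11, adjusted p = 0.0125). The call was lost without MB49 control replicate 1 (-0.28, adjusted p = 0.0593). Its KPC levels were 67.9, 65.5 and 69 CPM, and after 8 Gy 67.3, 64.8 and 66.8 CPM (-0.02 ± 0.11, adjusted p = 0.869), a value that library totals moved to -0.41 (adjusted p = 0.00136). Dnajb6, which keeps aggregation-prone proteins soluble and whose upstream stretch is printed above, rose in both lines without overlap, from 75.8, 87.1 and 96.7 to 183, 190 and 210 CPM in MB49 (1.17 ± 0.12, adjusted p = 1.39e-07) and from 98.9, 94.7 and 88.8 to 165, 159 and 146 CPM in KPC (0.74 ± 0.12, adjusted p = 2.96e-05).

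Among the DNAJ genes Dnajb5 had the largest called difference between the lines. In KPC it stood at 11.9, 13.7 and 12.5 CPM in the controls and at 2.83, 3.03 and 3.6 CPM after 8 Gy, a 4.02-fold fall (-2.01 ± 0.17, adjusted p = 1.33e-08). In MB49 it stood at 5.37, 4.65 and 5.94 CPM and at 7.3, 7.47 and 6.99 CPM (0.45 ± 0.16, adjusted p = 0.0197), a rise whose call was lost without MB49 control replicate 2, MB49 irradiated replicate 2 or KPC control replicate 1 (0.35 to 0.43, adjusted p = 0.0552 to 0.0922) and with library totals (0.15, adjusted p = 0.388). This MB49 call was also lost without the low-count filter (0.33, adjusted p = 0.235) and when only the groups compared were fitted (0.36, adjusted p = 0.0853). The difference of the responses was -2.46 ± 0.23 (adjusted p = 3.66e-07). Dnajb4 had the same pattern at a smaller size, with -0.85 ± 0.21 in KPC (adjusted p = 0.00169) and 0.54 ± 0.19 in MB49 (adjusted p = 0.0199). Its MB49 call was lost without MB49 control replicate 1 or irradiated replicate 3 (0.30 to 0.49, adjusted p = 0.0667 to 0.154) and with library totals (0.25, adjusted p = 0.297). It was also lost without the low-count filter (0.42, adjusted p = 0.0532) and when only the groups compared were fitted (0.46, adjusted p = 0.0585). Dnajb12, an anchored protein of the endoplasmic reticulum membrane, fell in MB49 (-0.66 ± 0.14, adjusted p = 0.000462) and in KPC (-1.11 ± 0.14, adjusted p = 2.46e-06). Dnajb14, another protein of that membrane, fell in MB49 (-0.95 ± 0.17, adjusted p = 0.00012) and had a value of -0.23 ± 0.17 in KPC (adjusted p = 0.263), which library totals moved to -0.61 (adjusted p = 0.00878).

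Class C is the most varied, and its members have single tasks in many compartments. Dnajc11, a protein of the mitochondrial outer membrane that belongs to the cristae-forming machinery, fell most, from 58.9, 48.8 and 53.5 to 11.3, 10.4 and 9.04 CPM in MB49 (5.24-fold, -2.39 ± 0.13, adjusted p = 6.18e-11). In KPC it went from 95.2, 103 and 109 to 43.2, 42 and 49.4 CPM (2.28-fold, -1.19 ± 0.12, adjusted p = 1.78e-07). Dnajc9, a chaperone of histones H3 and H4, rose most in MB49, from 20.7, 23.2 and 26.3 to 63.8, 64.5 and 70.9 CPM (1.50 ± 0.12, adjusted p = 4.68e-09), and in KPC from 47.4, 48.4 and 43.2 to 72.2, 72 and 71.3 CPM (0.63 ± 0.11, adjusted p = 0.0001). With library totals the KPC value was 0.25 (adjusted p = 0.0682). Dnajc18 rose in both, by 1.22 ± 0.12 in MB49 (adjusted p = 1.54e-07) and 0.92 ± 0.12 in KPC (adjusted p = 5.07e-06). The groups of these 3 genes did not overlap in either line. Dnajc8, a splicing protein, was called higher in both (0.45 ± 0.13 and 0.51 ± 0.13), with 0.16 (adjusted p = 0.324) and 0.13 (adjusted p = 0.402) under library totals.

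Several class C genes passed the test of the difference and had a called response in only 1 line. Dnajc27, a protein with a small GTPase domain, went from 16.7, 16.4 and 13.8 to 6.96, 5.88 and 5.64 CPM in MB49 (-1.35 ± 0.16, adjusted p = 9.75e-07). Its KPC levels were 5.32, 4.86 and 4.45 CPM, and after 8 Gy 4.91, 5.33 and 6.12 CPM (0.16 ± 0.16, adjusted p = 0.42), and the difference was 1.50 ± 0.23 (adjusted p = 6.18e-05). Dnajc25 had the same order, with -1.56 ± 0.23 in MB49 (adjusted p = 1.17e-05), -0.09 ± 0.23 in KPC and a difference of 1.47 ± 0.32 (adjusted p = 0.00157). The 2 DNAJ proteins of the mitochondrial import motor, Dnajc15 and Dnajc19, fell in KPC instead. Dnajc15 went from 52.6, 40.4 and 27.4 to 15.7, 17.5 and 14.9 CPM there (-1.32 ± 0.18, adjusted p = 7.53e-06), against 18.1, 19.4 and 22.5 and 20.1, 24.2 and 23 CPM in MB49 (0.17 ± 0.18). Dnajc19 went from 16.4, 12.1 and 10.3 to 5.16, 6.5 and 6.52 CPM in KPC (-1.09 ± 0.23, adjusted p = 0.000515), with a value of 0.26 ± 0.23 in MB49. Without MB49 control replicate 3 this MB49 value was called, at 0.54 (adjusted p = 0.0391). The differences of Dnajc15 and Dnajc19 were -1.49 ± 0.26 (adjusted p = 0.000218) and -1.35 ± 0.33 (adjusted p = 0.00303).

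**Figure D5:**
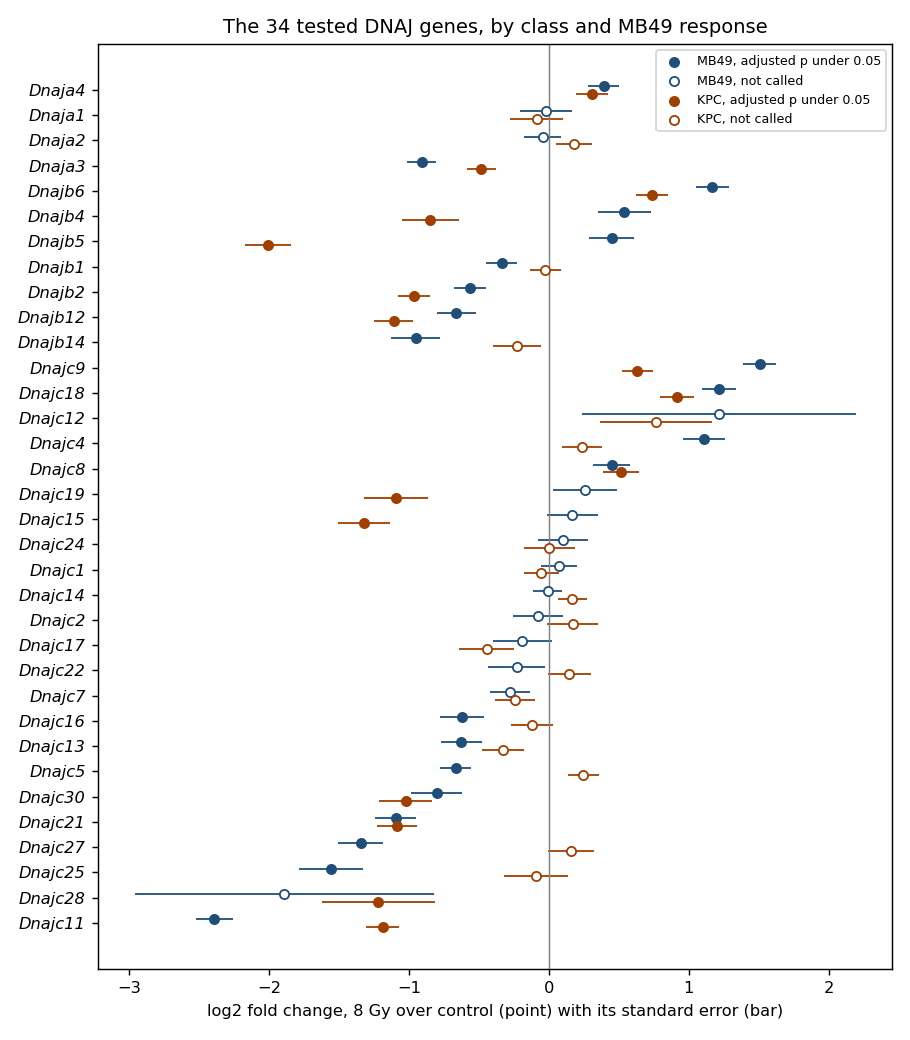
Log2 fold change after 8 Gy (x axis, bars are standard errors) of the 34 tested DNAJ genes in MB49 (blue) and KPC (brown), filled where the adjusted p is under 0.05. Genes are grouped by class and ordered within it by the MB49 value; Dnajc11 lies lowest among the called genes in MB49 and Dnajb5 in KPC.

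Small HSPs hold unfolding proteins without using ATP, and most of those matched by the symbol rule were hardly present. Of 7 genes, 3 could be tested. Hspb8, the partner of BAG3, stood at 277, 236 and 244 CPM in the MB49 controls and at 114, 112 and 92.2 CPM after 8 Gy (-1.25 ± 0.15, adjusted p = 1.6e-06). Its KPC levels were 5.36, 4.86 and 3.76 CPM, and after 8 Gy 2.28, 1.69 and 3.2 CPM (-0.99 ± 0.21, adjusted p = 0.000491). Among the controls it was lower in KPC by 5.76 on the log2 scale (-5.76 ± 0.19, 54.1-fold, adjusted p = 4.63e-14). Hspb6, known from muscle, fell in MB49 (-0.51 ± 0.14, adjusted p = 0.00482) and had a value of 0.23 ± 0.13 in KPC (adjusted p = 0.14), with a difference of 0.74 ± 0.20 (adjusted p = 0.00583). Hspb2, a heart and muscle gene, was named after its values were seen. It had 2 counts in the MB49 controls and 27 after 8 Gy, a ratio of 17.7 (95% counting interval 4.44 to 153), and 34 and 240 counts in KPC, a ratio of 8.75 (6.09 to 12.9). Hspb1, the heat-inducible HSP27, had 21 and 18 counts in the MB49 controls and irradiated libraries and 0 in both KPC groups, which allows up to 3 counts over a group, so no change could be measured at this depth.

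The 17 members that were not tested had from 0 to 39 counts over the 12 libraries together, and 8 of them, the 4 pseudogenes among them, had 0 in every library. No response could be measured for them.

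Where a start-site window was matched, the responses of genes with and without the paired motif were counted. Hspa8 and Hsp90ab1 had no window and are in neither set. The genes with the motif are not all separate units. Hspe1 and Hspd1 share a run of pairs, and the Hspa1a and Hspa1b windows are near-identical. Among the falls with the motif in MB49 is Hspa1a, whose call rests on 12 counts against 0. In MB49 7 of the 16 tested members with the motif were higher and 6 lower, against 12 higher and 16 lower of the 40 without it. In KPC the counts were 8 higher and 4 lower of 16, and 9 higher and 14 lower of 40. The median log2 fold changes were 0.06 with and -0.07 without the motif in MB49, and 0.27 and -0.18 in KPC. Both directions occurred with the motif, as in Hspe1 and Hspd1, whose starts flank the same run of 3 pairs. A match describes letters in a window. The responses of all genes were not split by the motif, and its part in the responses was not tested.

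Neighbouring chaperone genes outside the rule were counted from 3 lists. The background for these counts is again 35.3% of all genes higher and 31.6% lower in MB49, and 31.3% and 32% in KPC. Of 26 further co-chaperones and partners, a list that also holds the small HSP Cryab, 12 were higher and 7 lower in MB49, and 9 higher and 7 lower in KPC. In all 73.1% and 61.5% of them were called, near the background of 66.9% and 63.3%. The HSP90 kinase adaptor Cdc37 rose in both lines, by 1.52 ± 0.13 in MB49 (adjusted p = 2.61e-08) and 1.87 ± 0.13 in KPC (adjusted p = 2.29e-09). Chordc1 was called lower in both (-0.83, adjusted p = 0.000736, and -1.37, adjusted p = 6.98e-06), as was Ppid (-0.56, adjusted p = 0.0122, and -1.42, adjusted p = 3.28e-06). Hspbp1 was too (-1.16, adjusted p = 1.42e-06, and -0.34, adjusted p = 0.036). The MB49 call of Ppid was lost without irradiated replicate 1 (-0.40, adjusted p = 0.0724). The KPC call of Hspbp1 was lost without any 1 of 4 libraries (adjusted p = 0.0771 to 0.123) and with DESeq2. Cryab, the alpha-B crystallin, whose symbol the rule does not match, rose 16.9-fold in MB49, from 2.93 ± 0.699 to 49.1 ± 4.23 CPM (SD, n = 3; adjusted p = 1.9e-12), and 6.54-fold in KPC, from 27.8 ± 3.87 to 181.7 ± 10.7 CPM (adjusted p = 5.64e-11). Of 10 genes of prefoldin, which passes clients to CCT, and its helpers, 6 were higher and 1 lower in MB49, and 3 higher and 3 lower in KPC (70% and 60% called). With the length trend taken out the MB49 rise of Pfdn6 went from 1.04 to 0.08 (adjusted p = 0.515), that of Pfdn1 from 0.90 to 0.51 (adjusted p = 0.0075), and the fall of Txndc9 from -0.45 to -0.32 (adjusted p = 0.085). The prefoldin subunit Pfdn1 was called higher in MB49 (0.90 ± 0.23, adjusted p = 0.00288) and lower in KPC (-0.79 ± 0.23, adjusted p = 0.00733), and the helper Pdcl rose in both (1.64 and 1.47). Pfdn5 rose by 1.73 ± 0.18 in MB49 (adjusted p = 1.68e-07) and was called higher in KPC (0.64 ± 0.17, adjusted p = 0.00398), where library totals gave 0.26 (adjusted p = 0.194). Of 13 chaperones of the endoplasmic reticulum, 12 were higher and 1 lower in MB49, and 10 were higher and none lower in KPC (100% and 76.9% called). The 1 that was lower in MB49 was Hspa5, the HSP70 of that compartment (-0.45 ± 0.14, adjusted p = 0.00795), which rose in KPC (1.26 ± 0.14, adjusted p = 4.96e-07). Calr, a lectin chaperone, and Pdia4, a disulfide isomerase, rose in both lines, Calr by 1.61 and 1.71 and Pdia4 by 1.79 and 1.47 on the log2 scale, as did the Hspa5 cofactor Sdf2l1 (2.35 and 1.32).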

How the data were processed

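Poly(A) RNA of 12 cell line libraries was sequenced after TRIzol extraction and a stranded Illumina mRNA preparation, per the labels' protocols. The submitters' processing notes name fastp, HISAT2, StringTie and the build GRCm39. The counting tool and its strand setting are not given in the sources used here, so reads of overlapping antisense genes and near-identical copies may be shared. The deposited table by the authors holds estimated counts per gene (between 6.2 and 8.65% of values per library were fractional) and a gene length in bases. The authors' 4 group-mean columns were not used.

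Counts were rounded, genes filtered with filterByExpr (14362 of 57180 rows kept), scaled by TMM (factors 0.829 to 1.18) and fitted with edgeR 4.0.16 (robust quasi-likelihood, 1 coefficient per group over all 12 libraries, 8 residual degrees of freedom, R 4.3.3). Rows without a symbol (525, with 0.18 to 0.45% of counts) were kept. Tests were 2-sided and Benjamini-Hochberg adjusted p-values under 0.05 over all genes tested were called. Each SE was obtained by dividing the absolute log2 fold change by the root of its F statistic. The script was tested on simulated data. The 4 comparisons were the response to 8 Gy in MB49, that in KPC, KPC minus MB49 for these responses, and KPC minus MB49 for the controls. Promoter and transcript comparisons used Biopython 1.88.

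The members and lists were chosen with earlier results of these data known. In roles of at most 3 members every tested member was named. In the others the naming rule took, per line, the 2 largest called rises and 2 falls reaching 5 CPM, the member highest per length, and the 5 largest called differences each way. Other names, such as Tcp1, Cct4, Cct7, Dnajb1, Dnaja1, Dnaja2, Hspa1a, Hspa1l, Hspa12a, Hspa12b, Hspa14, Cct6b, Dnajc4, Dnajc5, Hspb1 and Hspb2, were added with their values seen. Alternatives were 19 settings: RLE factors, library totals, DESeq2 1.42.0, no low-count filter, only the groups compared, a replicate block, a length trend as offset, and each library left out.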

Additional observations from a re-analysis of the deposited data

Results flagged for a closer look

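For 28 members the test of the difference itself (edgeR, adjusted p under 0.05) called the responses of the lines different. These are 39.4% of the 71 members tested, against 42.9% of all genes tested, so the count is not particular to the members. Values are log2, KPC response minus MB49 response. The KPC response was the higher for Hspa1a (7.69, a size set by the fit's prior count, since irradiated MB49 had 0 counts), Hspa8 (1.94), Dnajc27 (1.50), Dnajc25 (1.47), Dnajc11 (1.20), Hsf1 (1.19), Stip1 (0.94), Dnajc5 (0.91), Hspa9 (0.86), Cct3 (0.81), Hsp90ab1 (0.75), Hspb6 (0.74), Dnajb14 (0.73), Bag3 (0.65), Hsph1 (0.62) and Dnaja3 (0.43). It was the lower for Dnajb6 (-0.43), Cct8 (-0.54), Dnajc9 (-0.87), Dnajc4 (-0.87), Hspa1b (-1.29), Dnajc19 (-1.35), Dnajb4 (-1.39), Dnajc15 (-1.49), Hspe1 (-1.75), Dnajb5 (-2.46), Cct6b (-2.95) and Hspa12a (-3.08). Hspa1a and Cct6b stayed under 5 CPM in every library, and Hspa12a under 2 CPM.

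The call held in all 18 settings that could be run for 20 of the 28, and was lost in some for 8. The difference of Dnajb6 lost its call when any 1 of 9 libraries was left out (-0.46 to -0.28, adjusted p = 0.0626 to 0.196), all but MB49 control replicate 3, MB49 irradiated replicate 1 and KPC control replicate 3. That of Cct8 lost it without any 1 of 7 (-0.55 to -0.36, adjusted p = 0.0551 to 0.152), namely MB49 control replicates 1 and 2, MB49 irradiated replicate 3, KPC control replicates 1 and 2, and KPC irradiated replicates 1 and 3. Dnaja3 lost it without MB49 control replicate 1, KPC control replicate 2 or KPC irradiated replicate 1 or 2 (0.40 to 0.43, adjusted p = 0.0523 to 0.0727). Dnajb14 lost it without MB49 control replicate 2, MB49 irradiated replicate 1 or KPC irradiated replicate 2 (0.58 to 0.64, adjusted p = 0.0633 to 0.0692), Bag3 without MB49 control replicate 1 (0.56, adjusted p = 0.0518) and Cct6b without MB49 irradiated replicate 3 (-2.41, adjusted p = 0.059). Other settings also ended calls. These were RLE factors for Cct8 (-0.48, adjusted p = 0.0594) and Dnajb6 (-0.37, adjusted p = 0.079), no low-count filter for Cct8 (-0.42, adjusted p = 0.102) and Dnajb6 (-0.30, adjusted p = 0.3), library totals for Hsph1 (0.52, adjusted p = 0.0555) and Dnajb14 (0.64, adjusted p = 0.0605), and the length trend as offset for Dnajb14 (0.51, adjusted p = 0.112) and Dnajc4 (-0.32, adjusted p = 0.15).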

How the results depend on the processing

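Of the counts of called members, that of KPC falls moved by more than 1.5 times under 1 setting: with library totals only it was 32, against 20. The other counts of called members and of all called genes stayed within 1.5 times in the 19 settings. When 1 library was left out, 20 to 24 members were higher and 24 to 29 lower in MB49, 20 to 24 higher and 18 to 22 lower in KPC, and 14 to 19 and 10 to 14 differed between the lines. Of all genes, 4707 to 5156 were then higher and 4203 to 5069 lower in MB49, and 4101 to 4718 and 4133 to 4805 in KPC. For the difference the counts of all genes were 2667 to 3365 and 2517 to 3460. Library totals turned the sign of 23 of 280 gene results, of which 18 were called neither with TMM factors nor with totals. The other 5 were Bag6 (-0.33), Cct3 (-0.33), Cct7 (-0.11) and Dnaja4 (-0.0795) in KPC and Stip1 in MB49 (-0.26). The length trend as offset turned the difference of Pfdn6, a short prefoldin gene, to 0.96. The shift of all genes under library totals is part of that setting's construction; otherwise the cause was not tested. Of the 280 gene results, 191 were called, and 162 of these kept the call whichever library was left out. Same-numbered libraries did not deviate together (correlations of -0.237 to 0.171), so the numbers were not taken to pair them. With a replicate block 24 members were higher and 27 lower in MB49, 20 and 20 in KPC, and 17 and 13 for the difference. The counts of all genes with the block were 4998 and 4530, 4481 and 4548, and 2965 and 3047. The block ended the KPC calls of Dnaja4 (0.31, adjusted p = 0.0506), Cct7 (0.27, adjusted p = 0.0714) and Hspbp1 (-0.34, adjusted p = 0.0704) among the genes refitted. Members with up to 39 counts could not be tested at this depth.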
